A study of Mus musculus with 2 samples.

Results

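Nupr1 encodes nuclear protein 1, a small and very basic chromatin protein that cells make under stress. It is 1 of the 31053 genes in the feature table and was matched by its symbol. It was chosen by its UMI counts in these libraries, which earlier results had shown to be high in the EYFP positive one. Its level and its pattern over classes are therefore given as descriptions, with no test. The study took pancreatic cells from mice of genotype R26[CA]30EYFP on the C57Bl/6J background after pancreatitis, with the treatment field given as None. The allele name gives an EYFP reporter with a CA repeat at R26. Cells sorted as EYFP positive made 1 single-cell library and cells sorted as EYFP negative made the other, so both groups share genotype, strain and exposure and the labels give EYFP as their only difference. Which animals the cells came from, how many and how long after pancreatitis is not given in the sources used here, and the reporter transcript is not in the feature table, so the sort could not be checked from the counts.

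Nupr1 was first found in the pancreas of the rat, as an mRNA that acinar cells make during acute pancreatitis. In mammalian cells its transcription is driven by Atf4, the transcription factor of the integrated stress response, and the protein binds chromatin and several partner proteins, among them prothymosin alpha and Msl1. Acinar cells, which make the digestive enzymes, are known to induce it strongly when injured.

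The values are UMI counts, which count captured mRNA molecules per cell. The EYFP positive library had 1717 barcodes, of which 860 had 200 or more genes and no more than 20% of their UMIs from mitochondria and were kept, and the EYFP negative library had 745, of which 553 were kept. The libraries differed in depth: the median kept cell had 1008 UMIs if EYFP positive and 8020 if EYFP negative. Acinar enzyme transcripts were also spread unequally, since the list of 34 acinar secretory genes took 4.06% of kept EYFP positive UMIs and 0.0986% of kept EYFP negative UMIs. The libraries share 4 barcode sequences. Cell classes rest on marker genes and are called X-like. Each group is a single library, so no replicate error can be given, and the 95% intervals given in parentheses cover counting error only.

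The gene (ENSMUSG00000030717) lies on the minus strand of chromosome 7, from 126623249 to 126630861 in GRCm38 (GENCODE M21), and the nearest protein-coding genes are Sgf29 and Il27. The transcript Nupr1-201 has 3 exons, and its coding sequence begins in exon 1 and ends in exon 2, so that exon 3 is untranslated. The coding sequence, of only 80 codons and a stop, is shown to make the gene's product visible, although the UMIs are counted per gene and cannot be given to 1 transcript. The start and stop codons are in capitals.

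Nupr1-201 coding sequence: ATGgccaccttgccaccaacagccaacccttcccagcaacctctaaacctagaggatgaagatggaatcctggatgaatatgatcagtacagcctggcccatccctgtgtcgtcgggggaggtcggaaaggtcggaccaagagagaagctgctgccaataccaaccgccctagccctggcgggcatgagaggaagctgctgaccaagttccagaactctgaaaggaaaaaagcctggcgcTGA

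The only close relative, Nupr1l on chromosome 5, shares 75.3% of 227 aligned coding bases with Nupr1, and the longest run of identical bases is 7. Nupr1l had 7 UMIs in kept EYFP positive cells and 3 in kept EYFP negative cells.

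Nupr1 was concentrated in the acinar-like cells of the EYFP positive library. Kept EYFP positive cells held 2117 Nupr1 UMIs, or 771 CPM (739 to 805), which are counts scaled to a fixed library total, and kept EYFP negative cells held 43, or 8.85 CPM (6.41 to 11.9). The 90 acinar-like cells were 10.5% of the EYFP positive cells and held 1764 UMIs, 83.3% of that library's Nupr1. Their level was 6575 CPM (6272 to 6889), and 85 of 90 cells had a UMI. The EYFP negative library had 1 acinar-like cell, with 8 Nupr1 UMIs of 5307, and no spread can be given for it.

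Outside acinar-like cells the EYFP positive levels were lower by more than 10-fold. Among EYFP positive cells, NK or innate lymphoid-like cells stood at 463 CPM (246 to 791), fibroblast-like cells at 289 (213 to 384) and ductal or metaplastic epithelial-like cells at 237 (205 to 272). The level was 140 CPM (95 to 199) in macrophage or monocyte-like cells, with blood endothelial-like cells at 86.9 (49.7 to 141), T-like cells at 47.3 (32.8 to 66.1) and B-like cells at 40.6 (21.6 to 69.3). In this order of EYFP positive levels acinar-like and NK-like cells were separated by more than their intervals, as were ductal-like and macrophage-like cells. The other neighbours overlapped. The second place of NK-like cells is not stable. Their acinar markers summed to 19114 CPM, against 5521 CPM in EYFP positive T-like cells, and their ductal markers to 3666 CPM. Their T markers summed to 1103 CPM, beside 1545 CPM in EYFP negative NK-like cells. With each cell's own markers 2 EYFP positive cells were NK-like. At resolution 0.5 the EYFP positive ductal-like class had 256 cells and 211 Nupr1 UMIs, against 225 and 198 at resolution 1.0. The acinar-like level was 22.7 times the fibroblast-like one (17.1 to 30.9) and 139 times the T-like one (99.1 to 201). With classes taken from each cell's own marker UMIs, 493 EYFP positive cells were acinar-like, at 2864 CPM, and 96 were T-like, at 13.3 CPM, so these classes hold largely other cells.

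In the EYFP negative library Nupr1 was carried by very few cells, 13 of 553, and most of them were not lymphocytes. Its 43 UMIs comprised 15 in fibroblast-like cells, 12 in ductal-like cells, 8 in the acinar-like cell, 4 in macrophage-like cells and 4 in T-like cells. The levels were 317 CPM (177 to 522) over 6 fibroblast-like cells, 144 (74.5 to 252) over 2 ductal-like cells and 30.2 (8.22 to 77.2) over 11 macrophage-like cells. T-like cells, 389 of the 553, stood at 1.18 CPM (0.321 to 3.02). The 106 B-like cells had 0 UMIs, with an interval of 0 to 5.14 CPM, and the 14 NK-like, 11 blood endothelial-like and 13 erythroid-like cells had 0 as well.

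**Figure D1:**
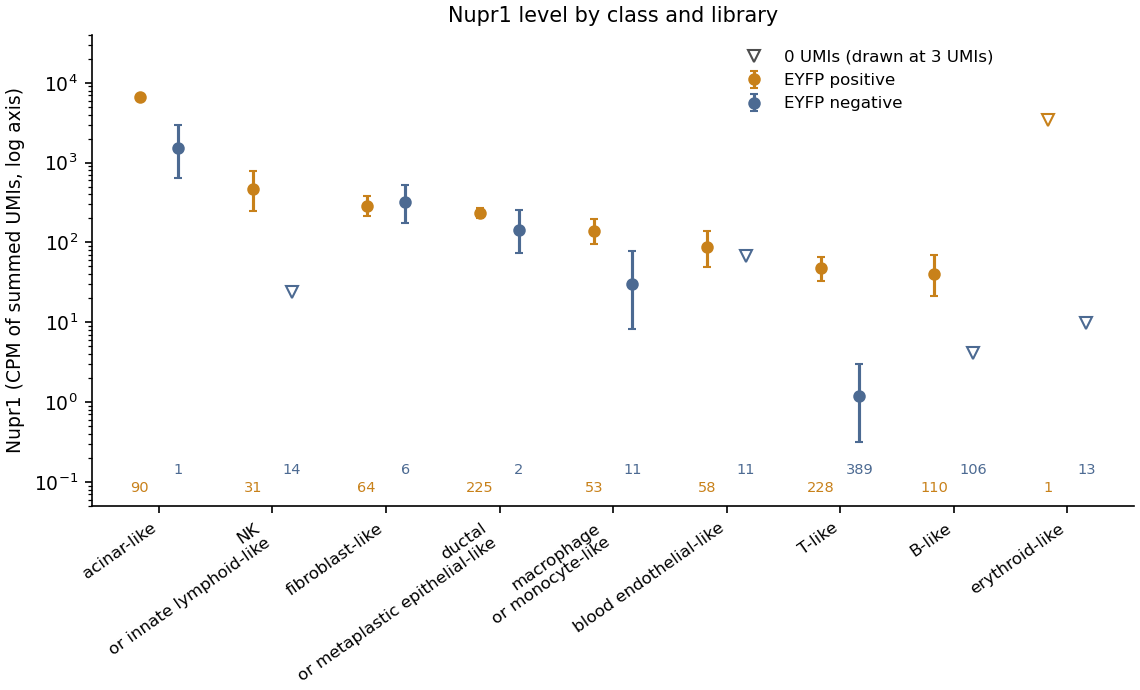
Nupr1 level (CPM of summed UMIs, log axis) by class, with EYFP positive left of EYFP negative. Points are sums over the cells of 1 library with exact Poisson 95% intervals, open triangles mark 0 UMIs at the level of 3 UMIs, and the digits give the number of cells. EYFP positive acinar-like cells stood at 6575 CPM, and fibroblast-like cells at 289 CPM in EYFP positive and 317 CPM in EYFP negative cells.

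The whole-library ratio of EYFP positive over EYFP negative was 87.1 (64.4 to 121). Without acinar-like cells it was 19.8 (13.9 to 28.8), without the acinar-like cluster led by Rbpjl 24.2 (17.7 to 33.8), and in cells of at least 5000 UMIs it was 45.2 (33.2 to 62.9), all computed after the data were seen. Class by class the ratio was 4.36 (2.21 to 10.1) in acinar-like cells, 4.64 (1.64 to 18.1) in macrophage-like cells, 1.64 (0.918 to 3.23) in ductal-like cells and 0.913 (0.503 to 1.76) in fibroblast-like cells. In ductal-like and fibroblast-like cells the interval includes 1, so no difference was detectable with 2 and 6 EYFP negative cells. The acinar-like ratio rests on 1 EYFP negative cell, at 1507 CPM, which fell in a cluster led by enzyme genes (below). The 31 EYFP positive cells of that cluster stood at 1633 CPM (1417 to 1874). Larger ratios were found in lymphoid classes, 40.2 (14.3 to 156) in T-like cells, at least 9.70 in B-like cells and at least 19.4 in NK-like cells. Acinar secretory UMIs moved with these ratios, at 26.3 per cell in EYFP positive T-like cells and 0.774 per cell in EYFP negative ones.

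The acinar-like cells fell into 2 clusters, and the one with fewer enzyme transcripts held most of the Nupr1. A cluster of 59 EYFP positive cells, led by the acinar transcription factor Rbpjl, by Nupr1 itself, and by Ctrc (a chymotrypsin) and Sel1l (of the degradation machinery of the endoplasmic reticulum), held 1560 Nupr1 UMIs, or 10878 CPM (10345 to 11431). The other cluster, 31 EYFP positive cells and the 1 EYFP negative cell, was led by enzyme genes such as Pnliprp1, Try5 and Cpb1, and its EYFP positive cells held 204 Nupr1 UMIs, or 1633 CPM (1417 to 1874). The ratio of the Rbpjl-led over the enzyme-led cluster was 6.66 (5.75 to 7.74). Nupr1 was among the genes used for clustering, so this ratio is a description. When Nupr1 was left out of the clustered genes, the EYFP positive acinar-like class again held 6575 CPM. That value covers the whole class, and the ratio between its 2 clusters was not computed without Nupr1. All 13 genes of the acinar marker list had a UMI in the Rbpjl-led cells, and of the 12 ductal markers 7 did, with Cftr, Mmp7, Krt19, Krt7 and Onecut2 at 0.

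Nupr1 was present in nearly every Rbpjl-led cell and reached high counts there. It had a UMI in 57 of 59 cells (96.6%, 88.3 to 99.6), with 0 at the lowest, 16 at the median and 139 at the highest. Per cell, the level had a median of 8222 CPM and a highest value of 26326 CPM, and the 5 cells with the most Nupr1 held 35.1% of the UMIs. Nupr1 made up 1.09% of all UMIs of the cluster. In the enzyme-led cluster 28 of 31 EYFP positive cells had a UMI (90.3%, 74.2 to 98.0), with a median of 4 and a highest count of 43, and there the 5 highest cells held 58.8%. The ranges of the 2 clusters overlap: the highest enzyme-led cell, at 11836 CPM, lay above the median of the Rbpjl-led cells.

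The level within the Rbpjl-led cluster was high at every depth and rose with depth. It was 6136 CPM (4610 to 8007) in 13 cells under 1000 UMIs, 8807 (8082 to 9579) in 31 cells of 1000 to under 3000 UMIs and 13207 (12386 to 14069) in 15 cells of at least 3000 UMIs. The counts varied between cells by 8.90 times the Poisson variance over the cluster and 18.2 times in those 15 cells. The intervals do not cover that spread. The 33 cells with at least 5% mitochondrial UMIs stood at 10176 CPM (9492 to 10896), and the 26 cells under 5% at 11783 (10948 to 12664). Thinned to 500 UMIs, Nupr1 was still seen in 56 of 59 Rbpjl-led cells and in 14 of 31 enzyme-led cells, and thinned to 1000 UMIs in 46 of 46 and in 22 of 31.

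The clusters differed widely in enzyme content, and the cluster with less of it had the higher Nupr1 level. Acinar secretory genes took a median of 5.13% of the UMIs of a Rbpjl-led cell (1.65% to 10.4%) and 60.4% of an enzyme-led cell (27.0% to 81.4%), with no overlap. The order was the reverse between the extreme Rbpjl-led cells: the highest secretory share came with 21808 CPM and the lowest with 1437 CPM. When the secretory UMIs were left out of each total, Nupr1 stood at 11471 CPM in Rbpjl-led cells and 4446 CPM in enzyme-led cells, a ratio of 2.58. On the same scale the ratio of EYFP positive to EYFP negative acinar-like cells, 4.36 above and resting on 1 EYFP negative cell, was 1.57. A nuclear RNA also moved with the split: Malat1, a long noncoding RNA retained in the nucleus, took 15.6% of UMIs in the Rbpjl-led cluster and 0.151% in the enzyme-led cluster. The other clusters lay between 0.854% and 4.54%. Its part in the Nupr1 ratio was not tested.

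**Figure D2:**
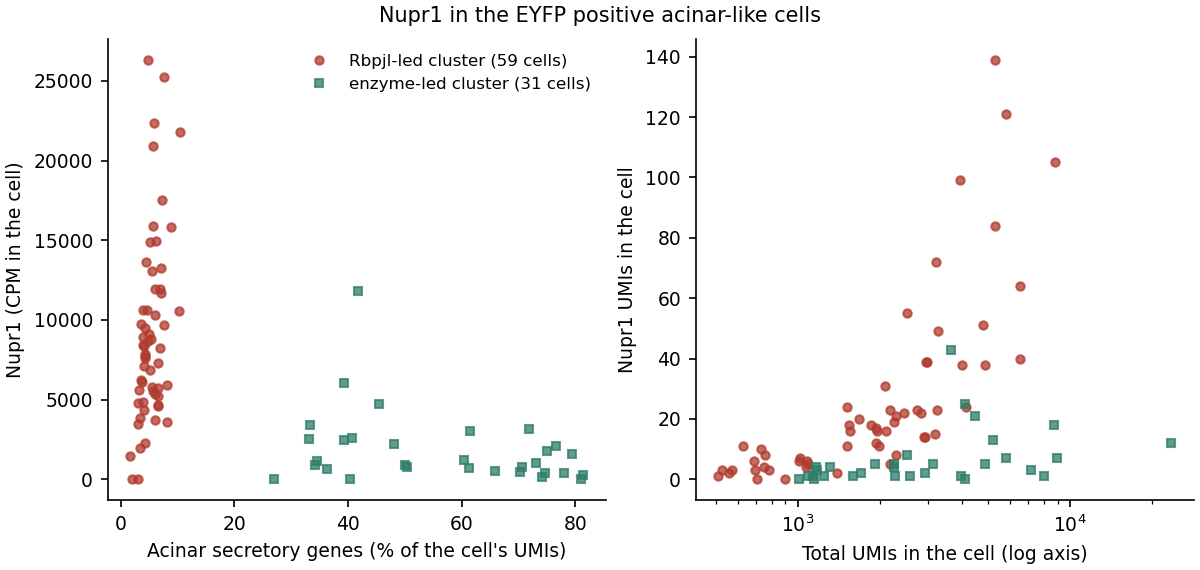
EYFP positive acinar-like cells, 1 point per cell, in the Rbpjl-led (circles) and enzyme-led (squares) clusters: Nupr1 in CPM against the share of acinar secretory genes (left) and Nupr1 UMIs against total UMIs on a log axis (right). Rbpjl-led cells have at most 10.4% secretory UMIs and reach 139 Nupr1 UMIs, and enzyme-led cells have at least 27.0% and reach 43.

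Acinar regulators and some stress genes were higher in the cluster with more Nupr1, and the main enzyme genes were lower. Rbpjl stood at 3528 CPM in Rbpjl-led cells and 232 CPM in enzyme-led cells (506 and 29 UMIs, ratio 15.2, 10.5 to 22.9). Ptf1a, its partner in the acinar transcription complex, had 24 and 2 UMIs (ratio 10.5, 2.59 to 91.2), and Bhlha15, which matures the secretory apparatus, 27 and 4 (ratio 5.88, 2.05 to 23.1). Hspa5, the main chaperone of the endoplasmic reticulum, was 7.5 times higher (5.16 to 11.3) and Xbp1, a transcription factor of the unfolded protein response, 5.78 times (3.05 to 12.1). With secretory UMIs out of the totals, a scale added after the data were seen, the ratio was 5.89 for Rbpjl (4.05 to 8.88), 4.05 for Ptf1a (1.01 to 35.3), 2.91 for Hspa5 (2.00 to 4.36), 2.24 for Xbp1 (1.18 to 4.68) and 2.28 for Bhlha15, whose interval then included 1 (0.794 to 8.96). Atf4, with 22 and 8 UMIs, stood at 2.39 (1.03 to 6.22) on the full totals. It was level on the second scale, at 0.928 (0.398 to 2.41). Ddit3, of the integrated stress response list, had 7 and 0 UMIs. The enzyme genes Ctrb1 and Prss2 went the other way, at ratios of 0.0403 (0.0372 to 0.0435) and 0.0464 (0.0412 to 0.0521). Rbpjl, Ptf1a, Bhlha15 and Xbp1 were chosen after their values were seen, and a cluster's own defining genes are no evidence about it.

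Most genes of the integrated stress response stood above the rest of the EYFP positive library in the Rbpjl-led cells. Of all 11858 genes with at least 10 UMIs, 19.2% were at least 2-fold higher in these cells than in all other kept EYFP positive cells and 23.4% at least 2-fold lower, with a median log2 ratio of -0.38. Those other cells, 801 with 31 acinar-like among them, are mostly of other classes. The part of cell class in the ratios of all 5 lists was not tested. Of 21 measured genes of the integrated stress response, 15 were at least 2-fold higher and 0 lower, and the median log2 ratio was 1.47. It was 1.32 without the pseudocount of 0.5 UMI and with sums of 0 set at their bound. The 6 others lay between. Of the 15 higher genes, Ddit3, Eif4ebp1, Mthfd2, Sesn2 and Shmt2 had intervals that include 1. Ddit3 stood at 2.05 (0.791 to 4.48) on 7 UMIs and Mthfd2 at 2.18 (0.958 to 4.36) on 9 UMIs. Sesn2 rested on 3 UMIs and Shmt2 on 4 UMIs in the Rbpjl-led cells. The 4 members with the most UMIs were all under 2-fold: Atf4 stood at 153 against 105 CPM (1.47, 0.905 to 2.27), Nars, an asparaginyl-tRNA synthetase, at 1.88 (1.14 to 2.95), Ppp1r15a, which ends the translational arrest, at 1.69 (1.20 to 2.31) and Slc3a2, an amino acid transporter chain, at 0.841 (0.429 to 1.49). The largest ratios, picked after the values were seen, were those of the cystine transporter Slc7a11 (23.6, 12.7 to 44.6, on 26 UMIs) and of asparagine synthetase, Asns (17.4, 9.22 to 32.6, on 22 UMIs).

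The unfolded protein response list had more higher genes than lower ones. Of 14 measured genes 7 were at least 2-fold higher and 3 at least 2-fold lower, with a median log2 ratio of 1.53, or 1.48 without the pseudocount of 0.5 UMI. Of all genes 19.2% were higher and 23.4% lower, so the lower members are no more than that share. Hspa5 stood at 5.30 (4.61 to 6.08) on 267 UMIs, and Edem1 and Herpud1, which act in the degradation of misfolded proteins and were picked after their values were seen, at 8.86 (6.47 to 12) and 6.30 (4.70 to 8.36). The chaperones and folding factors of the list lay on both sides. With Hspa5 stood Creld2, a folding factor, at 3.89 (1.90 to 7.34), and the co-chaperone Dnajb9 was at 1.99 (0.879 to 3.97). The 3 lower genes were Calr at 0.360 (0.196 to 0.608), Pdia4 at 0.288 (0.0589 to 0.855) and Manf at 0.230 (0.0470 to 0.679), the last a secreted survival factor. Hsp90b1 stood at 0.851 (0.637 to 1.12) and Pdia6 at 0.691 (0.383 to 1.15), both under 2-fold.

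In the other 3 lists a smaller part of the genes was higher, beside 19.2% of all genes higher and 23.4% lower. Of 10 measured genes of p53, FoxO and autophagy 2 were higher, near the share of all genes, and 1 lower. The higher ones were Trp53inp1, a stress protein of autophagy and cell death (4.83, 3.27 to 6.98), and Bbc3, a p53 target that promotes cell death, on 4 UMIs (2.69, 0.683 to 7.71). The lower one was Trp53, which stood at 0.422 (0.136 to 1.00) on 5 UMIs, and the autophagy genes Map1lc3b and Sqstm1 were at 0.718 (0.422 to 1.15) and 0.525 (0.209 to 1.1). Of 9 genes of oxidative and metal stress 1 was higher and 3 lower, with the metallothioneins Mt2 at 2.56 (1.58 to 3.98) and Mt1 at 1.97 (1.59 to 2.43), the peroxidase Prdx1 at 0.100 (0.0325 to 0.235), the glutathione synthesis subunit Gclm at 0.0991 on 1 UMI (0.00250 to 0.559) and Sod2 at 0.386 (0.104 to 1.00) on 4 UMIs. Of 7 Nupr1 partners and relatives 0 were higher and 2 lower, the latter near the share of all genes. The lower ones were Ptma, which encodes prothymosin alpha, at 0.236 (0.182 to 0.302), and the early response gene Ier3 at 0.151 on 1 UMI (0.00380 to 0.859), while Ep300 was at 0.927 (0.50 to 1.58), Msl1 at 1.32 (0.621 to 2.51) and Cops5 at 1.81 (0.912 to 3.29).

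**Figure D3:**
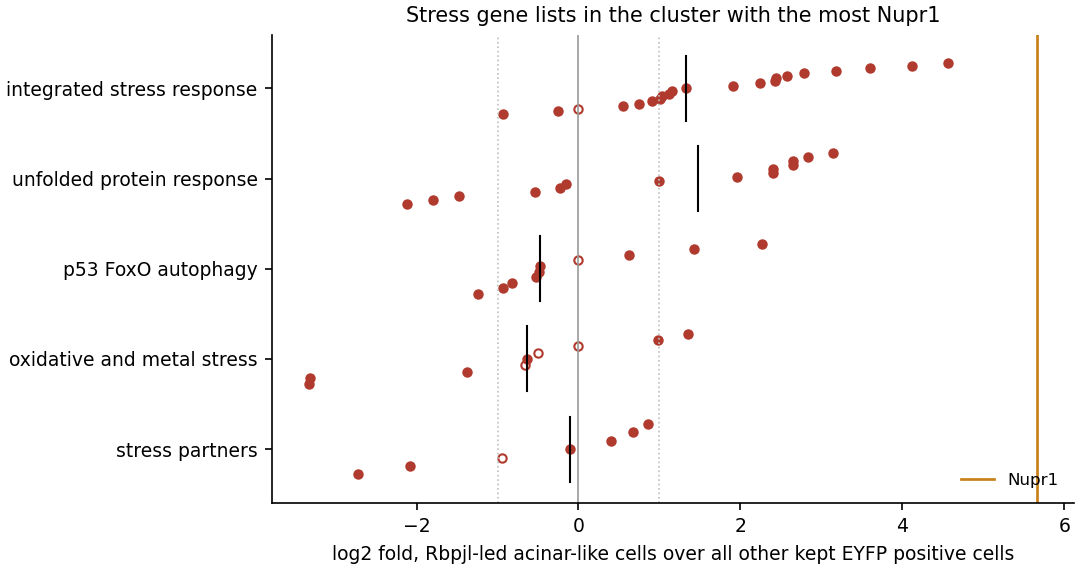
log2 ratio of Rbpjl-led acinar-like cells over all other kept EYFP positive cells for each list member with at least 10 UMIs. Open circles had 0 UMIs in 1 of the groups and are set at their bound, short lines are list medians, dotted lines mark 2-fold, and the long line is Nupr1. Of the integrated stress response list 15 of 21 genes lie at or beyond 2-fold on the higher side.

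Between the whole libraries the median ratios of the stress lists were small, while Slc7a11 came near Nupr1, on 1 EYFP negative UMI. T-like cells were 26.5% of kept EYFP positive and 70.3% of kept EYFP negative cells, and ductal-like cells 26.2% and 0.362%. The part of cell composition in the whole-library ratios was not tested. Over kept cells, 26.8% of 13282 genes were at least 2-fold higher in EYFP positive than in EYFP negative cells and 8.06% at least 2-fold lower, with a median log2 ratio of 0.21. At least 2-fold higher were 8 of 22 integrated stress response genes, 3 of 14 unfolded protein response genes, 2 of 10 in the p53, FoxO and autophagy list, 4 of 9 in the oxidative and metal stress list and 2 of 8 partners, and 0 in every one of these lists were 2-fold lower. The median log2 ratios of the lists were 0.36, 0.71, 0.08, 0.75 and 0.13 in that order. With acinar secretory, mitochondrial and ribosomal protein genes out of the totals the median of all genes was -0.01, that of the p53, FoxO and autophagy list -0.14 and that of the partners -0.087. Several of the abundant stress genes were nearly level: Atf4 had 107 CPM in the EYFP positive library and 108 CPM in the EYFP negative one (ratio 0.993), Ppp1r15a stood at a ratio of 1.12, Calr at 1.06 and Map1lc3b at 1.11. Among the called genes, named after their values were seen, were the metallothioneins Mt1 (20.3, 16.3 to 25.5) and Mt2 (25.3, 14.4 to 48.4), the lipoprotein receptor gene Vldlr (34.2, 11.1 to 171), Cdkn1a, which arrests the cell cycle (7.78, 4.4 to 14.7). The chaperones Hspa5 and Hsp90b1 stood at ratios of 1.75 and 2.06. Slc7a11 had 46 UMIs in kept EYFP positive cells and 1 in kept EYFP negative cells, a ratio of 81.4 (13.9 to 3284) beside 87.1 for Nupr1. Gdf15, a secreted stress cytokine, had 21 and 1 UMIs (37.2, 5.98 to 1537).

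In T-like cells Nupr1 differed between the libraries, and 2 stress list genes passed 2-fold. Of 9817 genes 3.29% were at least 2-fold higher in EYFP positive T-like cells and 8.53% at least 2-fold lower. Measured here were 15 integrated stress response, 13 unfolded protein response, 9 p53, FoxO and autophagy, 6 oxidative and metal stress and 7 partner genes. Over all 5 stress lists 1 gene was higher, Mt1 with 16 UMIs in EYFP positive and 1 in EYFP negative T-like cells (75.6, 11.7 to 3169). The 1 lower gene was Atf5, with 1 and 13 UMIs, at 0.363 with an interval that includes 1 (0.00855 to 2.42). Beside the Nupr1 ratio of 40.2 (14.3 to 156), the 5 enzyme and cofactor genes taken as free RNA stood at 53.9 for Cela1 (37.9 to 79.0), 62.4 for Cpa1 (36.9 to 114), 64.2 for Prss2 (46.3 to 91.3), 88.1 for Clps (61.4 to 131) and 116 for Ctrb1 (84.4 to 163). Of the 13 acinar markers 12 had a UMI in EYFP positive T-like cells and summed to 5521 CPM, against 68.3 CPM in EYFP negative T-like cells.

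Nupr1 in fibroblast-like cells was near the same level in both libraries, and in deep cells its ratio to enzyme transcripts was above that of T-like and B-like cells. Of the 6 EYFP negative fibroblast-like cells, those with at least 7734 UMIs had 5, 4, 4, 1 and 1 Nupr1 UMIs, and the other, with 857 UMIs, had 0. These 6 cells together held 2 acinar secretory UMIs and 0 UMIs of Spp1, Clu and Tff2. In fibroblast-like cells of at least 3000 UMIs, Nupr1 was seen in 11 of 11 in the EYFP positive library, at 298 CPM (209 to 413), and in 5 of 5 in the EYFP negative one, at 323 CPM (181 to 532). The EYFP negative level depends on which cells are counted: clustered alone, that library gave 25 fibroblast-like cells at 76.2 CPM. The 11 EYFP positive cells held 36 Nupr1 and 118 acinar secretory UMIs, or 305 per 1000 (204 to 446). In EYFP positive fibroblast-like cells under 1000 UMIs the value was 5.44 per 1000 (2.34 to 10.7), and T-like cells stood at 5.67.

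Deep ductal-like cells held Nupr1 in some cells and not in others. The 28 EYFP positive cells of the deeper ductal-like cluster (median depth 16888 UMIs, led by Spp1, Clu, Krt8 and Krt18) held 120 UMIs, or 198 CPM (164 to 237), in 18 of 28 cells. Of these UMIs 34 lay in 1 cell and 19 in another. Of the 2 EYFP negative cells in that cluster, 1 had 12 Nupr1 UMIs of 70711 and the other had 0. The shallower ductal-like cluster, 197 EYFP positive cells of median depth 762 UMIs, held 78 UMIs, or 336 CPM (266 to 419), in 59 cells and never more than 4 in a cell. That cluster includes 1 cell with 21498 UMIs of the hormone gene Ppy and 1 of Nupr1, and without it the cluster stood at 431 CPM (340 to 539).

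Macrophage-like cells had a low level with a few high cells. The 27 EYFP positive cells of the deeper macrophage-like cluster held 28 UMIs, or 147 CPM (97.5 to 212), and 9 of these lay in 1 cell of 3676 UMIs. The 11 EYFP negative cells of the same cluster held 4 UMIs, 3 of them in 1 cell. A further 26 EYFP positive cells, with hemoglobin genes beside macrophage genes among their leading genes, held 3 UMIs, or 97.1 CPM.

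Counts of 5 or more Nupr1 UMIs in a cell were common in acinar-like cells and rare elsewhere. They were found in 61 of 90 acinar-like, 6 of 225 ductal-like, 2 of 64 fibroblast-like and 1 of 53 macrophage-like cells of the EYFP positive library, and in the acinar-like cell, 1 of 2 ductal-like and 1 of 6 fibroblast-like cells of the EYFP negative library. The EYFP positive ductal-like cells among them had at least 12675 UMIs, the fibroblast-like ones at least 10251 and the macrophage-like one 3676, whereas acinar-like cells reached 5 from a depth of 628 UMIs. They were found in 0 of 228 T-like, 0 of 110 B-like, 0 of 31 NK-like and 0 of 58 blood endothelial-like EYFP positive cells. T-like cells with any Nupr1 UMI numbered 26 of 228 in the EYFP positive library (11.4%, 7.59 to 16.3), where their median depth was 1209 UMIs, and 4 of 389 in the EYFP negative library (1.03%, 0.281 to 2.61), where it was 8543. Of the 26, 20 lay in the T-like cluster found in the EYFP positive library alone. Thinned to 500 UMIs, a UMI was seen in 77.8% of 90 acinar-like (67.8 to 85.9), 15.6% of 225 ductal-like (11.1 to 21.0), 15.6% of 64 fibroblast-like (7.76 to 26.9) and 6.58% of 228 T-like EYFP positive cells (3.73 to 10.6). At this depth the fibroblast-like interval overlapped the T-like one, and the ductal-like and acinar-like intervals did not. The ductal-like cells with a UMI were all of the shallower cluster, 35 of 197. The deeper ductal-like cluster had 0 of 28 (0 to 12.3%), which overlaps the T-like interval.

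Nupr1 in EYFP positive T-like and B-like cells stood in overlapping ratios to enzyme transcripts. Free RNA of 1 source adds its genes to every droplet in a fixed ratio, so Nupr1 was set against the acinar secretory UMIs of the same cells. T-like cells held 34 Nupr1 and 5995 secretory UMIs, or 5.67 per 1000 (3.92 to 7.93), and B-like cells 13 and 1879, or 6.92 per 1000 (3.68 to 11.9). Barcodes with under 200 genes held 2.1 per 1000 (1.73 to 2.53) at up to 20% mitochondrial UMIs and 3.95 (3.15 to 4.90) above it, and blood endothelial-like cells 8.56 (4.88 to 13.9). The values of the 2 acinar-like clusters lie on either side, at 210 per 1000 (199 to 222) in Rbpjl-led and 2.58 per 1000 (2.24 to 2.96) in enzyme-led cells.

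The lymphocyte CPM fell with depth while the count per cell did not rise. EYFP positive T-like and B-like cells together stood at 237 CPM (152 to 352) in 148 cells under 1000 UMIs, 128 (69.8 to 214) in 71 cells of 1000 to under 3000 UMIs and 10.9 (4.97 to 20.6) in 119 cells of at least 3000 UMIs. Per 100 cells these were 16.2 (10.4 to 24.1), 19.7 (10.8 to 33.1) and 7.56 (3.46 to 14.4) Nupr1 UMIs. Per 1000 secretory UMIs they were 5.44, 7.58 and 5.58, with overlapping intervals. In T-like cells of at least 3000 UMIs, Nupr1 had 12.4 CPM over 73 cells of the EYFP positive library (4.98 to 25.5) and 1.19 CPM over 378 cells of the EYFP negative one (0.323 to 3.04), and these cells also differed in secretory UMIs. The part of free RNA in the lymphocyte values was not tested.

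**Figure D4:**
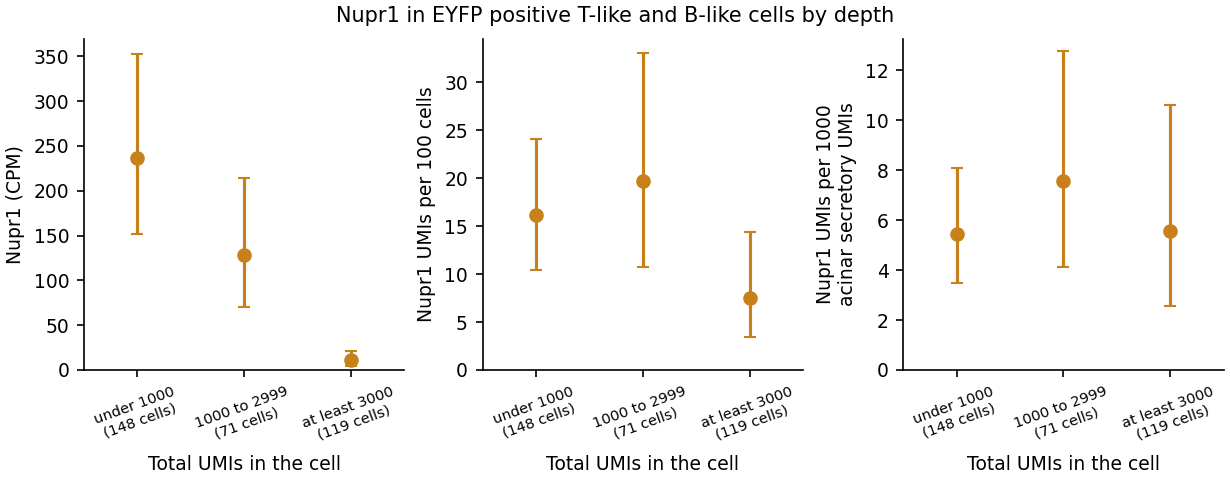
EYFP positive T-like and B-like cells in 3 ranges of total UMIs: Nupr1 in CPM (left), Nupr1 UMIs per 100 cells (middle) and per 1000 acinar secretory UMIs (right), with exact 95% intervals. The CPM is 237, 128 and 10.9, while the value per 1000 secretory UMIs is 5.44, 7.58 and 5.58.

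Some other EYFP positive groups held more Nupr1 than that ratio. Against 5.97 per 1000 (4.38 to 7.95) in T-like and B-like cells together, the deeper ductal-like cluster held 52.0 (42.9 to 62.5), the deeper macrophage-like cluster 31.1 (20.5 to 45.2) and fibroblast-like cells 26.4 (19.4 to 35.2). The shallower ductal-like cluster held 8.91 (7.04 to 11.1) and the hemoglobin-carrying macrophage-like cluster 3.96 (0.814 to 11.6), both overlapping the lymphocytes. The 31 NK-like cells held 17.1 (9.04 to 29.4), on 13 UMIs. They also held 2.42 UMIs of Spp1, Clu and Tff2 per cell, against 0.417 in T-like cells, and the part of that ductal RNA in their Nupr1 was not tested.

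**Figure D5:**
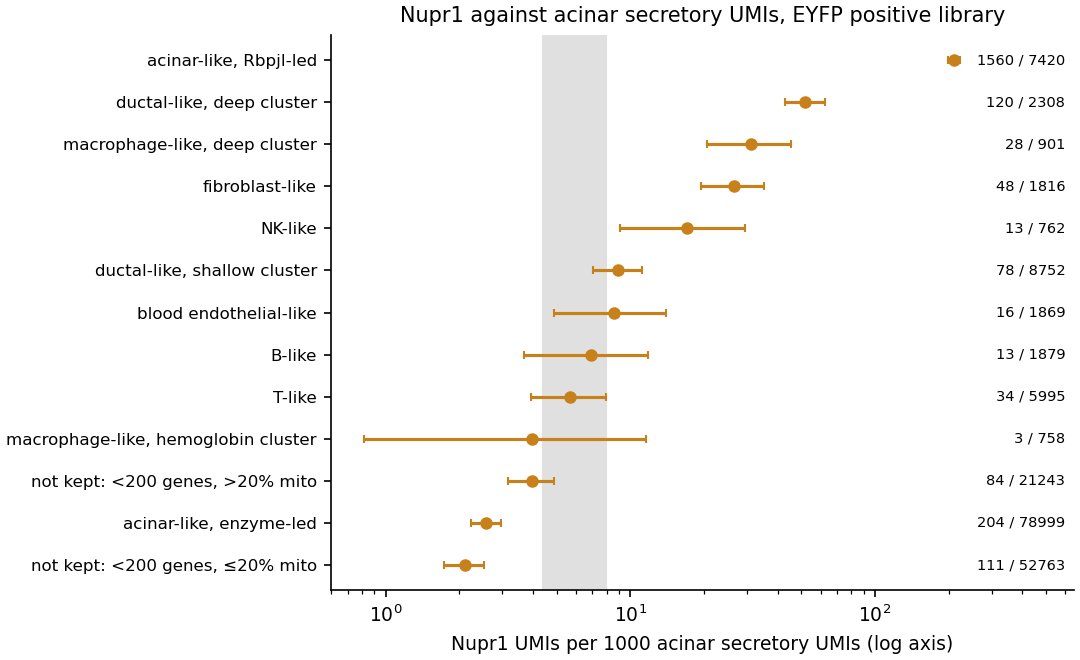
Nupr1 UMIs per 1000 acinar secretory UMIs (log axis) by group of EYFP positive barcodes, with exact 95% intervals. The digits at the right are Nupr1 and secretory UMIs, and the grey band is the interval of T-like and B-like cells together, 4.38 to 7.95. Rbpjl-led cells (210), the deeper ductal-like (52.0) and macrophage-like (31.1) clusters and fibroblast-like cells (26.4) lie to the right of the band.

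The genes most like Nupr1 over classes were acinar secretory genes and Tff2. Over 14 sums of class and library with at least 10 cells, the Pearson correlation of log2(CPM + 10) with Nupr1, among 7224 genes, was highest for Spink1 (0.98), a trypsin inhibitor, and then for Pla2g1b, Tff2, Zg16, Pnlip, Cel, Clps, Try4, Klk1 and Try5 (0.93). The sums share the 2 libraries and their free RNA, so the correlations are a description. By Spearman's rho 6 of these 10 were among the top 10, and in the 8 EYFP positive sums alone 3 of 10. The likeness stops inside the acinar class, where all 10 genes were lower in Rbpjl-led cells than in enzyme-led cells. Spink1, for example, stood at 132 CPM in Rbpjl-led and 3851 CPM in enzyme-led cells, while Nupr1 stood at 10878 and 1633 CPM.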

How the data were processed

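Pancreatic cells of mice were profiled as 1 EYFP positive and 1 EYFP negative library, with the Chromium 5′ kit version 1.1 per the labels. The authors deposited raw UMI counts per gene and barcode. Per the submitters' processing notes these came from Cell Ranger 2.1.0 with build GRCh38, whereas the file headers give software version 3.1.0 and mouse Ensembl identifiers, and the build behind the counts is left unstated here. Coordinates and the coding sequence are those of GENCODE M21 (GRCm38) for the same gene identifier. The reads end at 1 side of the transcript, and no length scaling was made.

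Kept barcodes (200 genes or more, mitochondrial share up to 20%) were clustered together with scanpy 1.11.5 (2000 variable genes, Nupr1 among them, 30 principal components, 15 neighbours, Leiden resolution 1.0). Clusters were named from 13 marker lists, with at least 3 markers at 2-fold. UMIs were summed per class and library. CPM carries an exact Poisson interval, shares a Clopper-Pearson interval and ratios (by default the EYFP positive library over the EYFP negative one) an exact conditional interval, all at 95%. Where a summed count was 0, 3 UMIs stood in for it and the ratio is a bound. List medians use a pseudocount of 0.5 UMI and members with at least 10 UMIs, and a call needs a 2-fold ratio with sums of 0 at the floor. Fold calculations were tested on simulated data. With 1 library per group no test was made. The gene, the lists and the rule for named genes were chosen with earlier results of these data known. The rule takes the 4 members of each list with the most UMIs and the 10 genes most like Nupr1. Alternatives were other filters, totals, clusterings, class rules, thinning to 500 or 1000 UMIs and removal of doublets marked by Scrublet.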

Additional observations from a re-analysis of the deposited data

Results flagged for a closer look

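Nupr1 was also found in barcodes that the mitochondrial filter removes and that no comparison above uses. EYFP positive barcodes with at least 200 genes and over 20% mitochondrial UMIs held 253 Nupr1 UMIs in 99 barcodes, or 1062 CPM (935 to 1201), and EYFP negative ones held 1 UMI in 42 barcodes, or 20.3 CPM (0.514 to 113). Of the EYFP positive barcodes 42 had a Nupr1 UMI and 14 had at least 5, with 42 UMIs in the highest. Rbpjl moved with it, at 118 UMIs in the EYFP positive barcodes and 0 in the EYFP negative ones. Its part in the Nupr1 level was not tested. The value per 1000 acinar secretory UMIs was 17.3 (15.2 to 19.6) in the EYFP positive barcodes. With 1 library per group, no group was large enough to be examined for outlying samples.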

How the results depend on the processing

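No paired analysis was possible because each group is 1 library. Of 126 alternative values, 88 stayed within the interval of the value reported (counts within 1.5 times it), 35 moved further and 3 changed sign. The EYFP negative values outside T-like and B-like cells are limited by cell number, 1 to 14 per class, and depth limits EYFP positive cells, of which 49.7% held under 1000 UMIs. Clustered alone, the EYFP negative library gave 25 fibroblast-like cells at 76.2 CPM of Nupr1. The causes of the changes were not tested unless the alternative itself sets them.

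The whole-library ratio was 129 as a mean over cells, 19.8 without acinar-like cells, 24.2 without the Rbpjl-led cluster and 45.2 in cells of at least 5000 UMIs. These and the other added alternatives were chosen after seeing the data. EYFP positive acinar-like cells stood at 7836 CPM under a stricter filter (500 genes or more, mitochondrial share up to 10%), 11471 with acinar secretory, mitochondrial and ribosomal protein genes out of the total, 5508 at resolution 2.0, 2864 with classes from each cell's own marker UMIs and 1633 without the Rbpjl-led cluster. Ductal-like cells stood at 293 CPM under that total and 407 as a mean over cells. T-like cells stood at 10.7 CPM under the stricter filter, 76.5 under that total, 135 as a mean over cells, 24.5 at resolution 2.0, 25.8 with the library clustered alone and 13.3 with each cell's own markers, so that their CPM is not a stable value.

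Shares of EYFP positive cells with a UMI under the stricter filter were 100% (36 of 36) for acinar-like, 47.4% for ductal-like, 71.4% for fibroblast-like and 6.67% for T-like cells. Thinned to 500 UMIs they were 77.8%, 15.6%, 15.6% and 6.58% in that order, and thinned to 1000 UMIs the T-like share was 1.61%. The acinar-like share was 59.9% at resolution 2.0. Against Spp1, Clu and Tff2, whose sums are far smaller, Nupr1 stood at 358 per 1000 in T-like and 241 in B-like cells, and the ratio to secretory UMIs stayed within its interval in all 8 other alternatives of each class.

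With acinar secretory, mitochondrial and ribosomal protein genes out of the totals, the median log2 ratio was -0.01 (-0.00852) for all genes, -0.087 for the partners and -0.14 for the p53, FoxO and autophagy list. The median of all genes was 0.30 under the stricter filter and 0.28 with members from 1 UMI. Of the 10 genes most like Nupr1, 6 were shared by Spearman's rho, 3 in the EYFP positive library alone and 3 over cluster sums. Removing the 2 EYFP positive and 5 EYFP negative cells that Scrublet marked, which held 0 Nupr1 UMIs, moved no value beyond its interval.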
